A study of Peromyscus maniculatus with 6 samples.

Results

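The bone morphogenetic protein (BMP) pathway was followed through 41 listed genes for its ligands, receptors, SMAD proteins and antagonists. Genes were found by symbol, ignoring case, in the deposited count table, which held 1 row each for 40 of them among 24281 genes. No row was named Inhbb. No expression threshold entered the list, but the genes were selected on symbols by pathway role with log2 fold changes and adjusted p-values of the tunicamycin contrast in view. Counts of changed genes within it, and their p-values, are therefore descriptions and are set beside the share over all genes.

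Libraries came from primary fibroblasts of deer mice (Peromyscus maniculatus, stock BW), grown out of ear punches taken at 4 weeks of age. There were 6 libraries, a control and a tunicamycin library from the cells of each of 3 animals (BW35770, BW35772, BW35773). Tunicamycin, which blocks N-linked glycosylation and so causes stress in the endoplasmic reticulum (ER), was given for 5 h, at a labelled 5 mg per mL that could not be checked here. No genetic change is labelled in any animal, the cells had been passaged, and the sources used here do not name a vehicle for the controls.

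BMPs are secreted, N-glycosylated dimers of the TGF-beta superfamily that bind type I and type II receptor kinases. The active receptors phosphorylate SMAD1, SMAD5 and SMAD9, which enter the nucleus with SMAD4 and switch on genes such as those of the Id family. The same signal commonly induces its own brakes, among them the inhibitory SMADs, the pseudoreceptor BAMBI and the secreted antagonist noggin. BMP signalling is known for its part in chondrocyte and osteoblast differentiation.

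Libraries held 37852385 to 49352126 counts on genes. Of 9 fibroblast markers found by name, 0 passed an edgeR adjusted p under 0.05, against 5.47% of all tested genes. Their summed level was 13694 to 17762 CPM (the count as a share of the library's TMM-scaled total) in controls and 13671 to 15898 CPM with tunicamycin. The treated sum was the lower in each pair. Below 1 CPM in every library were 6 of 7 keratinocyte, 5 of 6 endothelial, 5 of 7 immune, 4 of 5 melanocyte, 2 of 5 Schwann cell and 5 of 5 skeletal muscle markers, among them Krt5, Cdh5, Ptprc, Sox10 and Myod1. Cd68 and S100b, of the immune and Schwann cell lists, were well above that, at 68.6 to 175 and 46.5 to 126 CPM. Krt14 and Mitf were the keratinocyte and melanocyte markers not below 1 CPM throughout. Of the smooth muscle and pericyte markers only 1 of 6 was below 1 CPM in every library, and their sum was 2257 to 3082 CPM in controls. Of the adipocyte markers it was 1 of 3, with a sum of 18.1 to 26.9 CPM in controls. Cartilage markers were abundant, at 1924 and 2138 CPM summed over 12 genes in the control and treated library of BW35770 and at 6243 to 9081 CPM in the other libraries. All 7 genes chosen as a check of ER stress rose, for example Ddit3 by 3.92 ± 0.22 on the log2 scale (SE, edgeR adjusted p = 0.00023).

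After 5 h of tunicamycin, 5 BMP pathway genes were lower and 2 were higher. The lower genes were Smad6 and Smad7, the inhibitory SMADs, Bambi, the pseudoreceptor, Nog, which encodes noggin, and Rgma, a co-receptor. The higher genes were Smad1, a signal-carrying SMAD, and Acvr2a, a type II receptor. Calls came from edgeR's quasi-likelihood test with the animal as a block, at a Benjamini-Hochberg adjusted p under 0.05 over all tested genes. Of the 40 members, 35 passed the filter on low counts and 7 of these were called, or 20%. Over all 13503 tested genes 5.47% were called, 3.07% higher and 2.4% lower. The median log2 fold change was -0.12 over the 35 members and -0.03 over all tested genes. Values of the control and treated groups did not overlap for 9 of 35 members, or 25.7%, against 22.3% of all tested genes. The direction was the same in all 3 pairs for 18 of 35 members, or 51.4%, against 42.4% of all tested genes. Without the block only Smad6 was called among the members, when 2.58% of all genes were called, 1.78% higher and 0.792% lower.

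**Figure D1:**
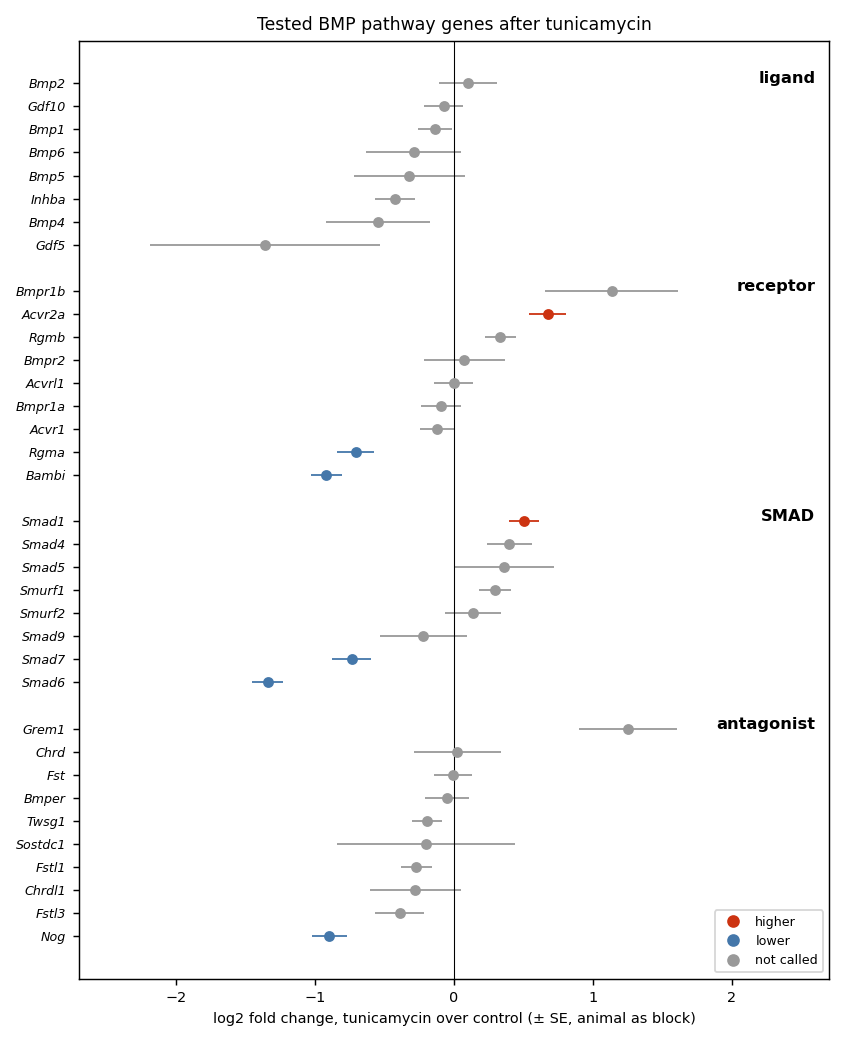
Log2 fold change (tunicamycin over control, horizontal axis) with its standard error for the 35 tested members, ordered within each role. Red points were called higher, blue points lower and grey points were not called. The lowest called point is Smad6 at -1.34 and the highest is Acvr2a at 0.67.

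Among the ligands none was called by edgeR, DESeq2 or limma-voom, and 1 of 8 tested passed an unadjusted edgeR p under 0.05. Over all 13503 tested genes edgeR called 5.47% at the adjusted threshold, and 2819 passed an unadjusted p under 0.05. The unadjusted counts given further on are to be read beside that number. Levels between genes are compared as RPKM, the CPM per kilobase of annotated exon. Gdf10, also called BMP3b, had the highest mean, 61.7 RPKM, followed by Inhba at 45.7 RPKM and Bmp1 at 18.5 RPKM. Inhba encodes the beta A subunit of activins, which signal mainly through other SMADs, and Bmp1 encodes a protease that cleaves procollagens and chordin and is no BMP in structure. Bmp2 stood at 2.20 RPKM, and Bmp4, Bmp5, Bmp6 and Gdf5 at 0.648, 0.255, 0.905 and 0.103 RPKM. Among the genes named Bmp2 to Bmp7, only Bmp2 thus exceeded 1 RPKM on average.

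Inhba, the gene behind the 1 unadjusted p, was at 251, 456 and 533 CPM in the controls of BW35770, BW35772 and BW35773 and at 224, 265 and 426 CPM in their treated libraries. The treated library was the lower of the pair in all 3 animals, but the groups overlapped. Its log2 fold change was -0.42 ± 0.14 (SE, edgeR adjusted p = 0.148). Gdf10 was at 133, 175 and 198 CPM in controls and at 161, 140.02 and 174 CPM with tunicamycin, in the same order of animals. It was higher in 1 pair and lower in the other pairs, and its log2 fold change was -0.08 ± 0.14. Bmp2, a ligand able to drive bone and cartilage formation, also went both ways among the pairs, with 7.39 ± 1.46 CPM in controls and 7.85 ± 0.76 CPM with tunicamycin (SD, n = 3).

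Bmp3, Bmp7 and Gdf6 did not pass the filter. Bmp3 had 2 and 11 counts in the control and treated library of BW35770 and 0 in the other libraries, and Bmp7 and Gdf6 had at most 4 counts in any library. A count of 0 allows a level of up to 0.0822 CPM in the shallowest library (3 counts, counting error only).

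**Figure D2:**
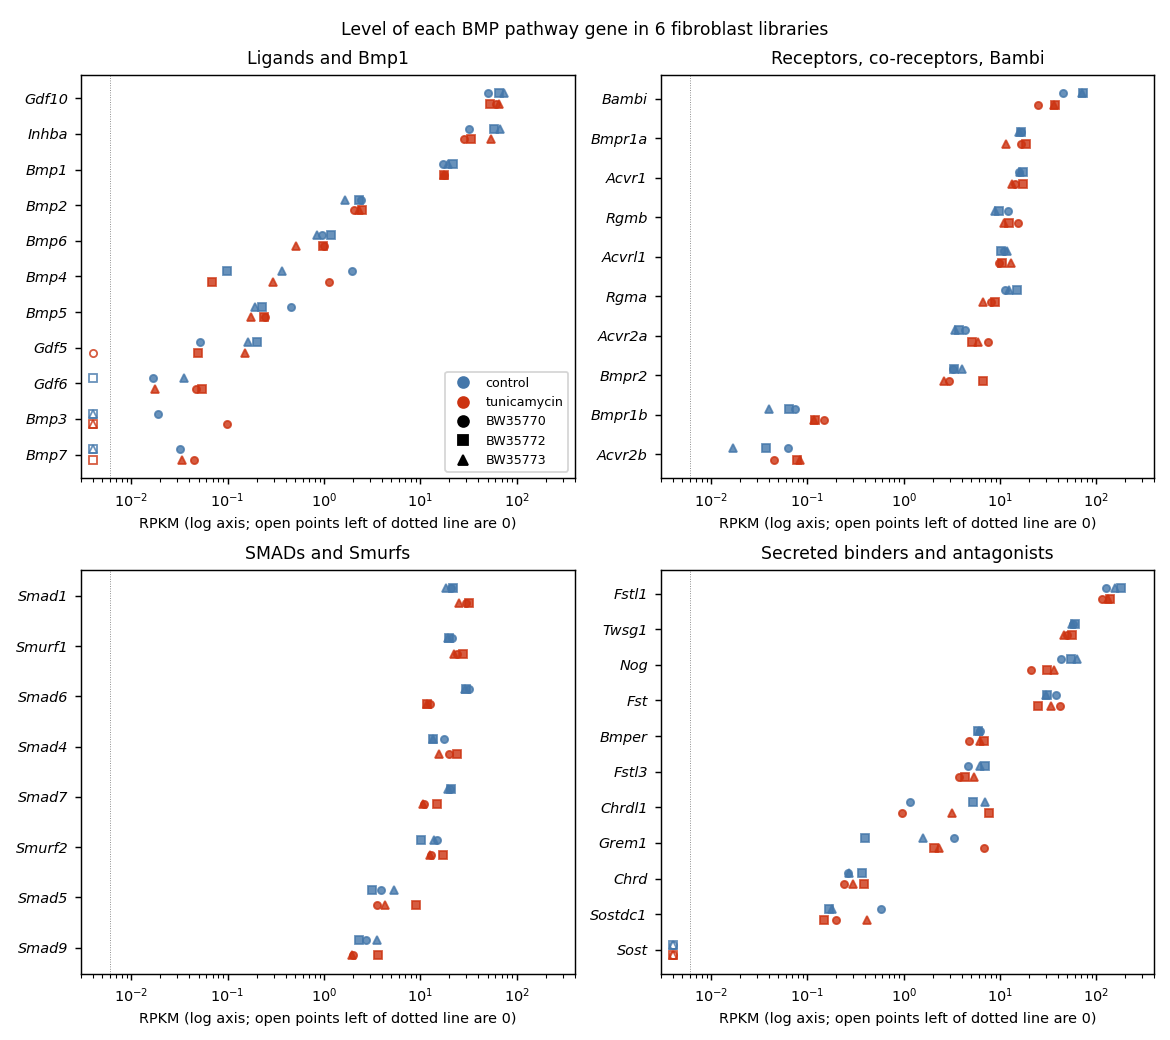
Level of each of the 40 members in RPKM (horizontal log axis) in each library, in 4 panels by role and ordered by mean. Blue points are controls, red points tunicamycin libraries, and circle, square and triangle mark BW35770, BW35772 and BW35773. Fstl1 reaches the highest mean, 141 RPKM, and Sost lies at 0 in every library.

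Of 9 tested receptors and co-receptors, 1 was higher and 2 were lower, or 33.3% called against 5.47% of all tested genes. The kinases that BMPs need most directly were present: Bmpr1a and Acvr1, both type I receptors, averaged 15.9 and 15.6 RPKM, and Acvrl1, a type I receptor best known from endothelium, 11.1 RPKM. The type II receptors Acvr2a and Bmpr2 averaged 4.99 and 3.83 RPKM. Bmpr1b and Acvr2b had the lowest means, 0.0949 and 0.0539 RPKM, and Acvr2b, with 1 to 6 counts in a library, did not pass the filter.

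Bambi encodes a receptor-like protein without a kinase that blocks signalling from type I receptors. It stood at 63.3, 102 and 100.1 CPM in controls and at 35.2, 52.8 and 51.5 CPM in the treated libraries of BW35770, BW35772 and BW35773. Every treated library lay below every control. The log2 fold change was -0.92 ± 0.11 (SE, edgeR adjusted p = 0.00571), or 1.89-fold lower. At a mean of 47.7 RPKM it was the most abundant member of its group (ENSPEMG00000019571, scaffold KI615890.1, bases 247231 to 252064).

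Rgma, a membrane-anchored co-receptor that strengthens BMP signalling and also repels growing axons, was at 39.5, 53.2 and 43.3 CPM in controls and at 28.2, 31.2 and 23.7 CPM with tunicamycin. The groups did not overlap, and the log2 fold change was -0.71 ± 0.13 (edgeR adjusted p = 0.0268; ENSPEMG00000019300, scaffold KI615804.1, bases 2219028 to 2263982). Its relative Rgmb had a log2 fold change of the other sign, 0.33 ± 0.11, with differences of 0.35, 0.32 and 0.33 within the pairs, and was not called (edgeR adjusted p = 0.148).

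Acvr2a, a type II receptor shared by activins and BMPs, was at 29.9, 25.6 and 23.6 CPM in controls and at 51.7, 34.9 and 40.6 CPM with tunicamycin. The lowest treated value exceeded the highest control. The log2 fold change was 0.67 ± 0.13 (edgeR adjusted p = 0.0332; ENSPEMG00000017072, scaffold KI615358.1, bases 7170607 to 7251918). Its exons share 726 bases with Orc4 on the opposite strand, and Orc4 had a log2 fold change of 0.17. The table is titled as strand-specific, so these reads should be separable, which could not be checked here.

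Bmpr1a, the most abundant type I receptor, was at 73.1, 74.5 and 70.3 CPM in controls and at 74.3, 83.0 and 51.1 CPM with tunicamycin. Its groups overlapped and its log2 fold change was -0.09 ± 0.15. Bmpr1b showed 16, 12 and 8 counts in controls and 34, 32 and 24 with tunicamycin. The groups did not overlap, and its log2 fold change, 1.13 ± 0.48, missed the threshold (edgeR adjusted p = 0.233).

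**Figure D3:**
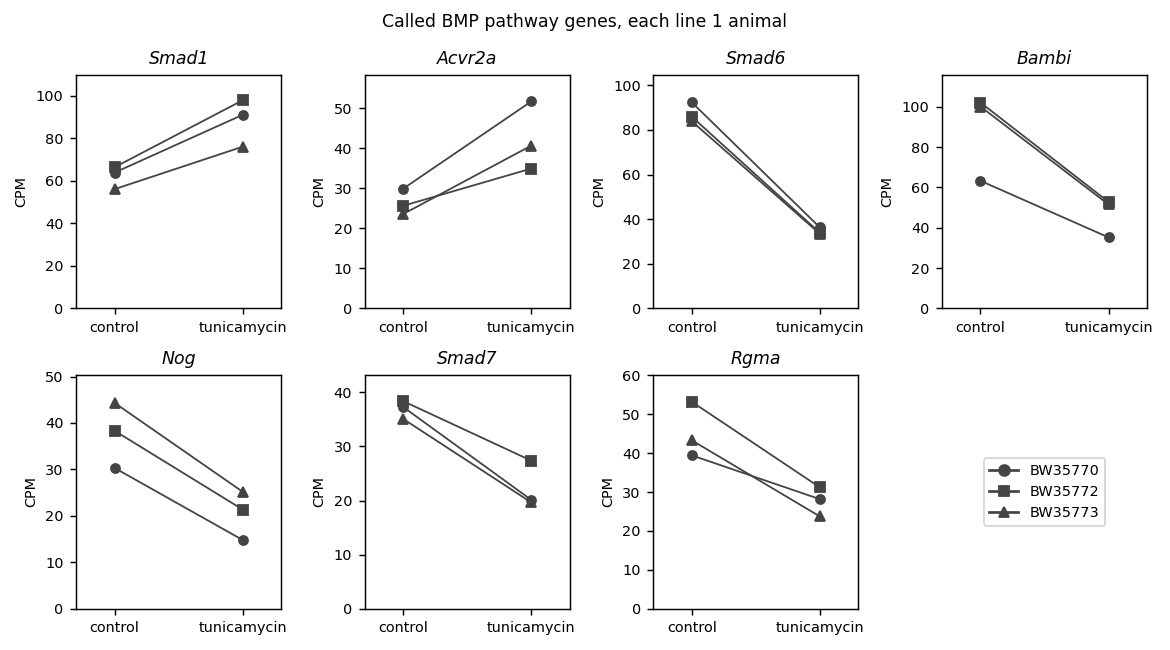
CPM (vertical axis from 0) of the 7 called members in the control and tunicamycin library of each animal, with a line joining the pair. Smad1 and Acvr2a slope upward and Smad6, Bambi, Nog, Smad7 and Rgma downward in all 3 animals, Smad6 with nearly parallel lines.

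The SMAD group showed the largest change among the called members. Of its 8 tested genes, including the ubiquitin ligases Smurf1 and Smurf2 that mark SMADs and receptors for degradation, 1 was higher and 2 were lower. These calls made up 37.5% of the group, against 5.47% of all tested genes. Smad6, which preferentially inhibits BMP type I receptors and SMAD1, stood at 92.3, 85.9 and 83.8 CPM in controls and at 36.3, 33.9 and 33.4 CPM with tunicamycin. The groups were far apart, with differences of -1.35, -1.34 and -1.33 within the pairs on the log2 scale. The fitted log2 fold change was -1.34 ± 0.11 (SE, edgeR adjusted p = 0.0011), or 2.53-fold lower (ENSPEMG00000017040, scaffold KI615330.1, bases 558488 to 632645). Its exons share 273 bases with an unnamed gene on the same strand, which had 0 counts.

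Smad7, which inhibits both TGF-beta and BMP signalling, was at 37.3, 38.4 and 35.1 CPM in controls and at 20.1, 27.4 and 19.6 CPM with tunicamycin. All treated libraries were below all controls, with the smallest fall in BW35772. The log2 fold change was -0.74 ± 0.14 (edgeR adjusted p = 0.0276; ENSPEMG00000021331, scaffold KI615352.1, bases 1197875 to 1225598). Smad1, the most abundant gene of the group at 24.7 RPKM, went the other way, from 63.9, 66.5 and 56.1 CPM to 91.1, 98.0 and 76.1 CPM. The log2 fold change was 0.50 ± 0.11 (edgeR adjusted p = 0.0445; ENSPEMG00000018411, scaffold KI615332.1, bases 2002142 to 2067308). Smad1 was the called member nearest the threshold, and Grem1, described below, was the nearest on the other side, at an adjusted p = 0.094.

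The other SMAD genes were not called. Smurf1 was at 111, 104 and 100.6 CPM in controls and at 126, 145 and 117 CPM with tunicamycin. Its groups did not overlap, yet the log2 fold change of 0.29 ± 0.11 had an edgeR adjusted p = 0.2. For Smad4, the partner shared by BMP and TGF-beta signalling, the log2 fold change was 0.40 ± 0.16, and for the signal-carrying Smad5 and Smad9 it was 0.36 ± 0.36 and -0.22 ± 0.31. The pair of animal BW35772 stood apart for several of these genes. Its log2 differences were 0.81 for Smad4, 1.53 for Smad5, 0.63 for Smad9, 0.76 for Smurf2 and 1.01 for Bmpr2. In BW35770 and BW35773 the differences were 0.17 and 0.21 for Smad4, -0.12 and -0.29 for Smad5, -0.45 and -0.83 for Smad9, -0.19 and -0.15 for Smurf2, and -0.16 and -0.62 for Bmpr2. The treated library of BW35772 was the highest treated one for each, with Bmpr2 at 47.8 CPM against 20.9 and 18.8 CPM. Its control was also the lowest control for Smad5, Smad9 and Smurf2. That treated library was the deepest, at 49352126 counts, and the part of depth was not tested.

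Of 10 tested antagonists and BMP-binding secreted proteins, 1 was lower and 0 were higher, or 10% called against 5.47% of all tested genes. For the higher direction limma-voom also gave 0, and DESeq2 and an unadjusted edgeR p under 0.05 each gave 1, which was Grem1. Nog encodes noggin, which wraps around BMP dimers and keeps them from their receptors. It was at 30.3, 38.3 and 44.3 CPM in controls and at 14.8, 21.4 and 25.2 CPM with tunicamycin. The groups did not overlap, and the log2 fold change was -0.90 ± 0.13 (SE, edgeR adjusted p = 0.011; ENSPEMG00000003492, scaffold KI615334.1, bases 10283888 to 10284586). Noggin was among the 3 antagonists with the highest levels, at a mean of 41.6 RPKM, behind Fstl1 at 141 and Twsg1 at 54.3 RPKM.

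Fstl1, a follistatin-like glycoprotein of mesenchymal cells, was at 450.3, 640.5 and 558 CPM in controls and at 403, 488 and 466 CPM with tunicamycin. It was lower in the treated library of each pair, though the groups overlapped, and the log2 fold change, -0.27 ± 0.11, missed the threshold (edgeR adjusted p = 0.228). Twsg1, which binds BMPs together with chordin, was at 238, 246 and 231 CPM in controls and at 203, 231 and 192 CPM with tunicamycin, and its log2 fold change was -0.19 ± 0.11 (edgeR adjusted p = 0.359). The treated library was again the lower of each pair. Fst, the activin-binding protein follistatin, averaged 85.2 ± 12.1 CPM in controls and 86.1 ± 22.3 CPM with tunicamycin (SD, n = 3).

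Grem1, which encodes the BMP antagonist gremlin, had the largest log2 fold change of the group, 1.25 ± 0.35, but was not called in the main test. It was at 5.98, 0.713 and 2.80 CPM in controls and at 12.3, 3.67 and 4.11 CPM with tunicamycin. Each treated library exceeded its own control, while the spread between animals exceeded the difference. Bmper, Fstl3 and Chrdl1 averaged 5.99, 5.22 and 4.19 RPKM. Chordin itself, Chrd, averaged 0.305 RPKM and Sostdc1, a sclerostin-like antagonist, 0.282 RPKM. Sost, the osteocyte product sclerostin, had 0 counts in every library.

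Summed over their members, antagonists reached 283, 345.5 and 328 RPKM in the controls of BW35770, BW35772 and BW35773 and 243, 270.5 and 266 RPKM in the treated libraries. Fstl1 gave the largest part of these sums. Receptors summed to 119, 148 and 143 RPKM in controls and 99.8, 117 and 101 RPKM with tunicamycin. Both sums were lower with tunicamycin in each pair, whereas those of ligands and SMADs went both ways. The pseudoreceptor Bambi gave the largest part of the receptor sums, at 44.7, 72.1 and 70.7 RPKM in controls and 24.9, 37.3 and 36.4 RPKM with tunicamycin. Without Bambi, the receptor sums went both ways among the pairs.

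Acvr2a, Rgma, Bambi, Smad1, Smad7 and Nog lost their calls without the block and without animal BW35770, while their fold changes stayed close to those above. Without that animal their log2 fold changes were 0.62, -0.82, -0.95, 0.50, -0.66 and -0.83, in this order, with SE of 0.19 to 0.23 in place of 0.11 to 0.14. Their edgeR adjusted p-values were then 0.42, 0.201, 0.0932, 0.47, 0.377 and 0.203. Without the block the log2 fold changes were 0.69, -0.71, -0.93, 0.51, -0.72 and -0.88, with SE of 0.14 to 0.23. Over all 10 alternatives the adjusted p-values without animal BW35770 were the highest of the 6 genes, except for Bambi, at 0.0999 without the block. The lowest ran from 1.03e-07 for Bambi to 0.00775 for Smad1. With animal BW35770 left out, Smad6 was the only called member (edgeR adjusted p = 0.0276), and 74 genes were higher and 37 lower in all. Without animal BW35772 the call for Smad1 was also lost (log2 fold change 0.47 ± 0.18, adjusted p = 0.108).

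Genes known as targets of BMP-activated SMADs were described through a list of 32, none of them a member above. The list was drawn up with falls of Id1, Id2 and Sp7 already known, so it is not independent of these samples. Of 26 tested genes 13 were lower and 0 higher, a share of 50% against 5.47% of all tested genes. DESeq2 called 14 lower and 1 higher, limma-voom 13 and 0, and 3 were higher at an unadjusted edgeR p under 0.05. The median log2 fold change was -0.69, against -0.03 over all tested genes. Without the block 8 were lower, and without animal BW35770 also 8.

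Id1, an inhibitor of basic helix-loop-helix factors and a direct SMAD target, was at 66.2, 38.2 and 52.0 CPM in controls and at 12.5, 5.76 and 9.92 CPM with tunicamycin. Its relative Id3 was at 428, 276 and 298 CPM in controls and at 163, 82.7 and 102 CPM with tunicamycin. For both genes every treated library lay below every control. The log2 fold changes were -2.51 ± 0.14 for Id1, -2.23 ± 0.14 for Id2 and -1.56 ± 0.12 for Id3 (SE, edgeR adjusted p = 0.00023, 0.000345 and 0.000863). For Id4, the remaining member of the family, it was 0.48 ± 0.13 without an edgeR call (adjusted p = 0.0923), while DESeq2 called it higher (adjusted p = 0.0227, in a range of 0.0227 to 0.282 over the alternatives).

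Sp7, the osteoblast factor osterix, and Snai1, a repressor active in mesenchymal transitions, both had a log2 fold change of -2.10, with SE of 0.12 and 0.14 (edgeR adjusted p = 0.00023 and 0.000419). The remaining lower genes, named after their values were seen, were Hey1, Tmem100, Msx2, Dlx3, Dlx5, Gata2, Msx1 and Cdkn1a, with log2 fold changes from -1.89 for Hey1 to -0.65 for Cdkn1a. Msx1, Msx2, Dlx3 and Dlx5 encode homeobox factors of skeletal and skin development.

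**Figure D4:**
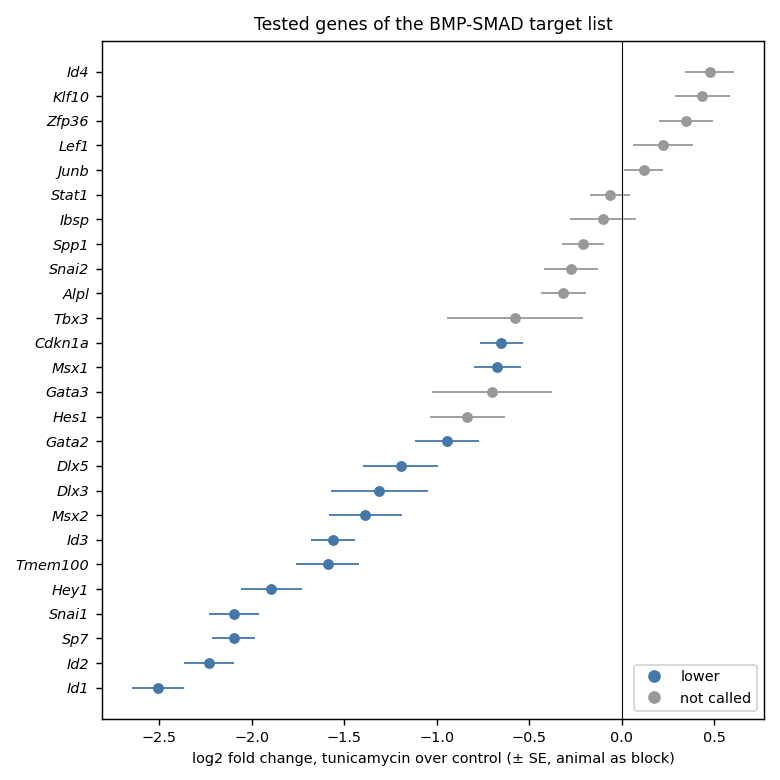
Log2 fold change (tunicamycin over control, horizontal axis) with its standard error for the 26 tested genes of the BMP-SMAD target list. Blue points were called lower and grey points were not called. Points run from Id1 at -2.51 to Id4 at 0.48, with 13 blue points.

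Genes of the pathway or of its ligand superfamily, beyond the members and targets, were described by 4 further lists. Called were 33.3% of the 6 other ligands tested and 8.7% of the 23 other SMAD regulators tested, against 5.47% of all tested genes. Of 6 other ligands tested, Gdf15, a stress-induced hormone of the superfamily, rose by 1.62 ± 0.19 on the log2 scale (SE, edgeR adjusted p = 0.00485). Gdf11 fell by 0.74 (adjusted p = 0.0265). Both were listed by family, and whether either acts through BMP receptors was not tested. Of 23 other SMAD regulators 2 rose and 0 fell, with 1 lower at an unadjusted edgeR p under 0.05 and 0 lower in DESeq2 and limma-voom. These were Tab1, an adaptor of the TAK1 kinase (log2 fold change 1.08 ± 0.19, adjusted p = 0.02), and Rnf111, the ubiquitin ligase Arkadia, which removes Smad7 and SMAD repressors (0.52 ± 0.11, adjusted p = 0.0438). Of 6 other receptors 0 were called in edgeR, DESeq2 or limma-voom, with 1 past an unadjusted edgeR p under 0.05.

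Among the other secreted modulators, Furin, the protease that cleaves BMP precursors into active ligands, was at 166, 162 and 150.2 CPM in controls and at 91.0, 86.8 and 82.2 CPM with tunicamycin. The groups did not overlap, and the log2 fold change was -0.88 ± 0.10 (edgeR adjusted p = 0.00524). Over the alternatives, the lowest adjusted p-values of Furin, Gdf11, Tab1 and Rnf111 ran from 5.85e-08 for Furin to 0.00724 for Rnf111. Without animal BW35770 all 4 calls were lost (adjusted p = 0.11, 0.308, 0.225 and 0.439 in that order), the highest value of each gene over the alternatives. The log2 fold changes of the 4 genes were then -0.89, -0.78, 1.08 and 0.53, close to the values with all animals, with SE of 0.19 to 0.29. Without BW35772 the call for Rnf111 was also lost (0.0903), and without the block that for Gdf11 (0.156).

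Marker lists of other cells moved with treatment in part. The smooth muscle list summed to 2257 to 3082 CPM in controls and 1565 to 2693 CPM with tunicamycin, with 1 of 6 tested genes lower, and the Schwann cell list to 72.9 to 128 and 49.01 to 84.9 CPM, with 1 of 4 tested genes lower. The immune list summed to 181, 125 and 88.4 CPM in the controls of BW35770, BW35772 and BW35773 and to 157, 71.2 and 70.01 CPM in their treated libraries, nearly all of it Cd68, with 0 of 3 tested genes called in edgeR. The keratinocyte list summed to 5.34, 9.18 and 22.9 CPM in controls and to 3.14, 4.08 and 12.4 CPM with tunicamycin, and Krt14, its 1 tested gene, was lower. The smooth muscle, Schwann cell, immune and keratinocyte sums were each lower with tunicamycin in every pair. So were the endothelial, skeletal muscle and fibroblast sums. The melanocyte sum was higher in every pair, and the adipocyte and cartilage sums went both ways. The 12 cartilage markers summed to 1924 to 8533 and 2138 to 9081 CPM, with 0 called in edgeR. Over all tested genes edgeR called 5.47%. In bulk RNA, fewer cells of a type and less RNA per cell cannot be told apart, and the part of these lists in the BMP results was not tested.

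Differences between animals, which the choice of members did not use, were tested by an F test of the animal terms in the same edgeR fit. Of 35 members 2 differed, Bmp4 and Chrdl1, or 5.71%, against 3.53% of all tested genes. Bmp4, a ligand central to skin and skeletal development, was at 3.74 and 2.18 CPM in the control and treated library of BW35770, at 0.192 and 0.134 CPM in BW35772 and at 0.701 and 0.573 CPM in BW35773 (edgeR adjusted p = 0.00981). BW35770 thus held the highest values, an 18.2-fold range of animal means that rests on 7 counts in each library of BW35772. Chrdl1, a chordin-like antagonist, was lowest in BW35770, at 2.08 and 1.74 CPM, against 9.37 and 13.8 CPM in BW35772 and 12.5 and 5.63 CPM in BW35773 (adjusted p = 0.0345).

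Inhba, Grem1 and Bambi came next (edgeR adjusted p = 0.0548, 0.0632 and 0.0745). Inhba was lowest and Grem1 highest in BW35770, and Bambi was lowest there among controls and among treated libraries. Bmp4, Chrdl1, Inhba, Grem1 and Bambi were all called between animals by DESeq2, and Bmp4 alone by limma-voom. In edgeR 0 members were called without BW35770, 6 without BW35772 and 4 without BW35773, when 15, 1028 and 1010 of all genes were called. The cartilage marker sum also set BW35770 below the other animals, among controls and among treated libraries. So did the fibroblast, keratinocyte and Schwann cell sums, whereas the smooth muscle, immune, endothelial, melanocyte and adipocyte sums were highest in BW35770. Of the tested markers, 7 of 11 for cartilage and 5 of 9 for fibroblasts differed between animals, against 3.53% of all tested genes. It was 1 of 1 for keratinocytes, 1 of 1 for endothelium, 1 of 3 for immune cells and 1 of 4 for Schwann cells. For smooth muscle, melanocytes and adipocytes it was 0 of 6, 0 of 1 and 0 of 2. No more than 1 derivation of cells is labelled per animal, so animal, culture and cell composition cannot be told apart.

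**Figure D5:**
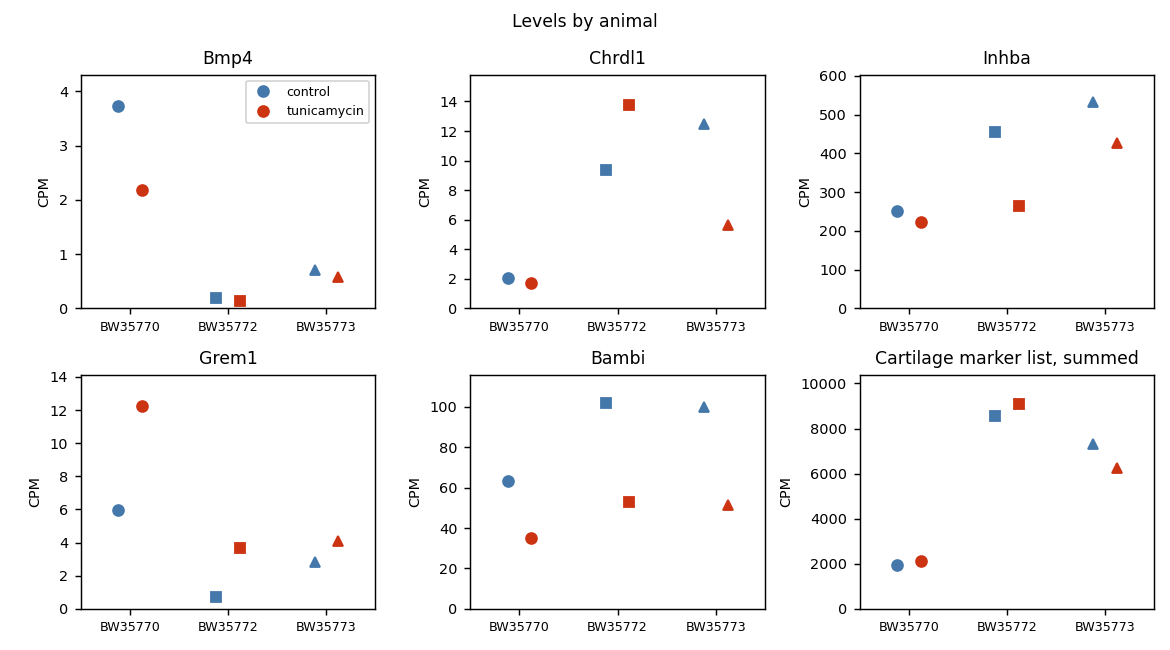
CPM (vertical axes from 0) of Bmp4, Chrdl1, Inhba, Grem1 and Bambi and the summed CPM of the cartilage marker list, by animal, with controls in blue and tunicamycin libraries in red. BW35770 is highest for Bmp4 and Grem1 and lowest for Chrdl1, Inhba and the cartilage sum, at 1924 and 2138 CPM.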

How the data were processed

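The authors deposited raw read counts per gene, with a column for each library. STAR 2.6.1 was the aligner, and alignments were handled with SAMtools 1.6 and counted with featureCounts (Subread), per the submitters' processing notes. Libraries were directional and paired-end, per the labels' protocols. The genome build, the annotation and the handling of multi-mapping reads are not named there. Coordinates and exon lengths are those of the table.

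The test was run in edgeR 4.0.16 (R 4.3.3): filterByExpr (minimum count 10, minimum total 15), TMM scaling, and glmQLFit and glmQLFTest (two-sided) with animal and treatment as terms, and Benjamini-Hochberg adjustment over 13503 genes. The titles give the animal of each library. Deviations from group means correlated at 0.66, 0.41 and 0.22 within the pairs of BW35770, BW35772 and BW35773. The SE is the log2 fold change over the square root of F. Differences within pairs use log2 CPM with a prior count of 2. Libraries differed beyond counting error (chi-square per degree of freedom at least 34.0). P-values reflect cells of 3 animals. Library totals were 37852385 to 49352126 counts. Floors cover counting error only, while SE and SD also take in variation between libraries. The fit was also run on counts simulated from the same fitted model, which cannot test the assumptions of that model.

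Members, gene lists and tests were chosen with earlier results of these data known. Values in each library are given for members called with or without the block, the 2 most abundant of each role, and the member of each role with the smallest animal p. For other lists at most 4 called genes per direction, and Id1 to Id4, are named by rule. Alternatives were other scalings, filters, DESeq2 1.42.0, limma-voom (limma 3.58.1), no block, and leaving out each animal. In a paired fit, leaving out 1 library removes its pair. Of 24281 IDs, 6252 have no name and were not searched for members. A result among the other secreted modulators is not reported here.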

Additional observations from a re-analysis of the deposited data

How the results depend on the processing

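Smad6 was called lower under all 10 alternatives, with log2 fold changes of -1.34 to -1.32, as were Id1, Id2, Id3, Sp7 and Snai1. Among values of named genes, 246 kept their side of the threshold, 22 lost a call, 1 gained one and 0 changed the sign of a call. Without the replicate block, 241 genes were higher and 107 lower (415 and 324 with it), members 0 higher and 1 lower, targets 8 lower, and other pathway genes 1 lower. DESeq2 called 709 genes higher and 622 lower, and 1 target higher. Between animals, DESeq2 called 1045 genes and 5 members, no filter 789 genes and 5 members, and the filter at a count of 50 and limma-voom 1 member each.

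Leaving out each animal in turn gave 74 to 806 genes higher and 37 to 826 lower, members 0 to 3 higher and 1 to 5 lower, targets 0 to 1 higher and 8 to 14 lower, and other pathway genes 1 to 6 higher and 0 to 4 lower. Between animals it gave 15 to 1028 genes and 0 to 6 members. The lowest counts came without BW35770, and the cause was not tested. Fits without an animal rest on 4 libraries. The median log2 fold change over all genes lay between -0.03 and 0.01 in all settings. Where a library held 0 counts for a gene, a level of up to 3 counts remained possible.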

Other observations

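Among the BMP-SMAD targets, 8 of 26 differed between animals (edgeR F test, adjusted p under 0.05), against 3.53% of all tested genes. The count was 0 without BW35770, 9 without BW35772 and 12 without BW35773, when 15, 1028 and 1010 of all genes were called, and 12 in DESeq2. They included genes of bone formation that were lowest in BW35770. Alpl, tissue-nonspecific alkaline phosphatase, was at 172 CPM in the control of BW35770 and at 727 and 642 CPM in those of BW35772 and BW35773. Ibsp, bone sialoprotein, was at 1.94, 38.9 and 32.1 CPM in the same order, and Sp7 at 61.5, 144 and 130 CPM. Tbx3, a T-box factor, went the other way, at 4.42, 0.192 and 0.4 CPM. These genes were chosen after their values were seen.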
